A study of Mus musculus with 4 samples.

Results

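The BCL2 family decides whether a cell keeps its mitochondria intact or releases their contents and dies by apoptosis. Survival members such as Mcl1 and Bcl2l1 (BCL-XL) hold the effectors Bax and Bak1 in check, and the effectors, once released, form pores in the outer mitochondrial membrane. BH3-only members such as Bcl2l11 (BIM) sense stress or loss of growth factor and act by binding the survival members, the effectors or both. The 10 genes described here were taken by symbol: the survival members Bcl2, Bcl2l1, Bcl2l2 (BCL-W) and Mcl1, the effectors Bax and Bak1, and the BH3-only members Bcl2l11, Bid, Bad and Bbc3 (PUMA). All 10 were found among 23259 symbols with a value, and all 10 passed the filter of a mean of at least 1 FPKM.

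RNA was sequenced from macrophages grown from the bone marrow of C57BL/6 mice aged 7 weeks and kept for 24 h with IL-4, the cytokine of alternative macrophage activation. There were 2 libraries labelled Sema6D-/-, from mice lacking the membrane semaphorin Sema6D, and 2 labelled wild type, and both groups received IL-4. No label says whether the 2 libraries of a group came from separate mice or cultures, and each p-value is set against the spread of these libraries alone, which may be technical. Sample titles begin with W under the genotype Sema6D-/- and with K under wild type, so each direction is that of the libraries as labelled, and an exchange of labels would reverse it. Values are FPKM, fragment numbers scaled by transcript length and library size, so that levels of different genes can be compared.

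The libraries were of similar depth and held macrophage RNA. Depth, estimated from the steps between low values, was about 8300000 and 8600000 fragments in Sema6D-/- libraries and 9100000 and 9400000 in wild type libraries. Sema6d itself was at 0.106 and 0.315 FPKM in Sema6D-/- libraries and at 0.166 and 0.389 FPKM in wild type libraries, which does not separate the labels. All 9 macrophage markers were tested: Emr1 was higher, Itgam, Cd14 and Lyz2 were lower, and the other 5 did not pass. Their list sum was 5431 to 5440 FPKM in Sema6D-/- libraries and 5740 to 6019 FPKM in wild type libraries (list median -0.18). None of the 8 lymphocyte markers exceeded 1.06 FPKM. Among neutrophil markers S100a8, S100a9, Ngp, Lcn2 and Ltf were higher, Csf3r was lower and Camp did not pass. Mpo, Elane and Retnlg passed the filter only through the Sema6D-/- libraries, and no count of calls is drawn from them. The list summed to 635 to 778 FPKM in Sema6D-/- libraries and 227 to 241 FPKM in wild type libraries. Among dendritic cell markers Itgax was lower and the other tested gene did not pass (list sum 306 to 321 FPKM in Sema6D-/- libraries and 404 to 410 FPKM in wild type libraries; Zbtb46 and Xcr1, also lower without overlap, were under 1 FPKM). The mast cell, basophil and eosinophil markers were low: Mcpt8 and Prg2 passed the filter only through the Sema6D-/- libraries, where they were higher, and no count of calls is drawn from them (list sum 6.66 to 12.3 FPKM in Sema6D-/- libraries and 1.49 to 1.80 FPKM in wild type libraries; Tpsb2 listed at 0 in all). Of 7 tested markers of dividing cells, Mki67 and Birc5 were lower and Pcna was higher, while the list median was -0.29. Pcna, at 238 and 251 FPKM in Sema6D-/- libraries and 157 and 149 FPKM in wild type libraries, made up most of the list sum (256 to 269 FPKM in Sema6D-/- libraries and 174 to 181 FPKM in wild type libraries). The part of these cells in the differences below was not tested, and in bulk RNA fewer cells of a type and less RNA per cell cannot be told apart.

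What joins the 10 genes is the BH3 segment, the short helix by which family members bind each other. Each gene's principal GENCODE transcript held exactly 1 match to a leucine or methionine followed, after 3 other residues, by glycine, alanine or serine and then aspartate. Such a match is common, since 38.7% of 21565 principal mouse proteins held at least 1 and 25.3% held exactly 1. The 30 coding bases from that first residue are given for all 10 members, because they show the segment that members of the 3 roles share. Capitals mark the codon pair for the small residue and the aspartate (GENCODE M21, GRCm38, coding strand).
Bcl2: ctccgccgggctGGGGATgacttctctcgt
Bcl2l1: ctgagagaggcaGGCGATgagtttgaactg
Bcl2l2: atgcgggctgctGGAGACgagtttgagacc
Mcl1: ctgcggcgcgtgGGCGACggcgtgcagcgc
Bax: ctccggcgaattGGAGATgaactggacagc
Bak1: cttgctctcatcGGAGATgatattaaccgg
Bcl2l11: ctgcggcggatcGGAGACgagttcaacgaa
Bid: ctcgcccaaataGGCGATgagatggaccac
Bad: ctccgaaggatgAGCGATgagtttgagggt
Bbc3: ctgcggcggatgGCGGACgacctcaacgcg

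The Bak1 stretch lies in a coding exon at chr17:27022528-27022557 on the minus strand and the Bax stretch in a coding exon at chr7:45465994-45466023, also on the minus strand. Both effectors carry the same capital letters, GGAGAT, and match at 17 of the 30 bases. Bid shares 19 of the 30 bases with Bak1, Bcl2l11 shares 17, Bbc3 shares 15 and Bad shares 14, and the survival members share between 11 (Bcl2l2) and 14 (Bcl2l1 and Mcl1). Bad has a serine codon and Bbc3 an alanine codon where the other 8 members have glycine.

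Levels per length spanned the family widely and in nearly the same order in all 4 libraries. Mcl1, a short-lived survival protein on which many myeloid cells depend, stood highest, followed by Bax, Bak1 and Bcl2l1. Bid, Bcl2l11 and Bad came next with overlapping ranges, and their order differed between libraries. Bcl2l2, Bbc3 and Bcl2 followed in that order in every library. Apart from the neighbours Bid and Bcl2l11, and Bcl2l11 and Bad, no neighbours in this order overlapped in any library. Mcl1 alone made up 73.9% and 74.6% of the summed survival FPKM in Sema6D-/- libraries and 73.2% and 76.5% in wild type libraries, whereas Bcl2, the founding member, made up 1.45% and 1.89% in Sema6D-/- libraries and 2.02% and 1.48% in wild type libraries. The least sampled member was Bbc3, with an estimated 116 to 132 fragments a library over its annotated exons, and the most sampled was Mcl1, with 5336 to 6793.

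**Figure D1:**
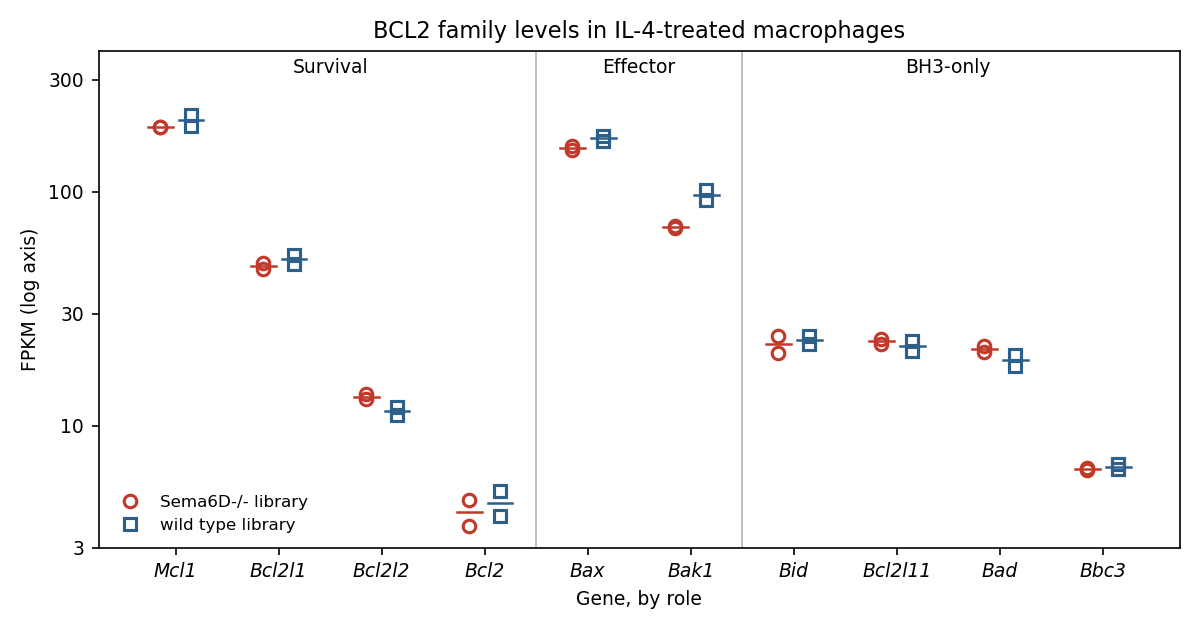
FPKM of the 10 members on a log axis, by role, with 1 symbol per library (circles, Sema6D-/-; squares, wild type; n = 2 each) and a line at each group mean. Bak1 stands at 71.2 and 70.0 FPKM in Sema6D-/- libraries, below 102 and 91.8 FPKM in wild type libraries, while most other members lie close together in both groups.

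Between the labels, the family differed at 1 member. Bak1, an effector that resides in the outer mitochondrial membrane, was lower in the libraries labelled Sema6D-/-, and the other 9 members did not pass the test. By limma on log2(FPKM + 1), 0 members were higher and 1 of 10 was lower at an adjusted p under 0.05. Over all 10115 genes tested, 4.80% were higher and 4.91% lower, 9.72% in either direction, so 1 call among 10 members is close to the background. At an unadjusted p under 0.05 there were 3 members (Bak1, Bax and Bcl2l2), 1 of them higher, against 25.1% of all genes. Groups did not overlap for 5 of 10 members, 2 higher and 3 lower, and for 56.2% of all genes, 28.8% higher and 27.4% lower. The median difference of the 10 was -0.07, and that of all genes tested was 0.003.

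Among the effectors, Bak1 was at 71.2 and 70.0 FPKM in Sema6D-/- libraries, against 102 and 91.8 FPKM in wild type libraries. Both Sema6D-/- libraries lay below both wild type libraries. The mean fell by 27% to 70.6 ± 0.81 FPKM in Sema6D-/- libraries, against 96.7 ± 7.0 FPKM in wild type libraries (SD, n = 2 each). The difference was -0.45 ± 0.06 (SE) in log2(FPKM + 1), with a 95% interval of -0.60 to -0.29 (limma adjusted p = 0.0145). A difference of at least this size was found in 8.72% of genes tested. The call was lost without Sema6D-/- replicate 1 (-0.46, limma adjusted p = 0.115) and without Sema6D-/- replicate 2 (-0.44, limma adjusted p = 0.108), fits in which the lone Sema6D-/- library is assumed to vary like the others. Part of the Bak1 exons lies opposite Ggnbp1, which was at 0.333 to 0.359 FPKM in the 4 libraries, and Ggnbp1 was the only other annotated gene sharing 50-base stretches with Bak1 (17.1% of them).

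Bax, the effector that moves to mitochondria on activation, was at 151 and 157 FPKM in Sema6D-/- libraries, against 173 and 165 FPKM in wild type libraries. These groups did not overlap either, with Sema6D-/- lower. The difference of -0.14 ± 0.05 (SE) did not pass the test after adjustment (limma adjusted p = 0.159; 95% interval -0.26 to -0.02). It lay between -0.17 and -0.10 under every alternative tried. The ratio of Bak1 to Bax within a library was 0.473 and 0.447 in Sema6D-/- libraries and 0.588 and 0.556 in wild type libraries, so the wild type libraries held more Bak1 per Bax. An exact two-sided permutation test of this ratio gave p = 0.333, the smallest p that 2 libraries against 2 allow.

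**Figure D2:**
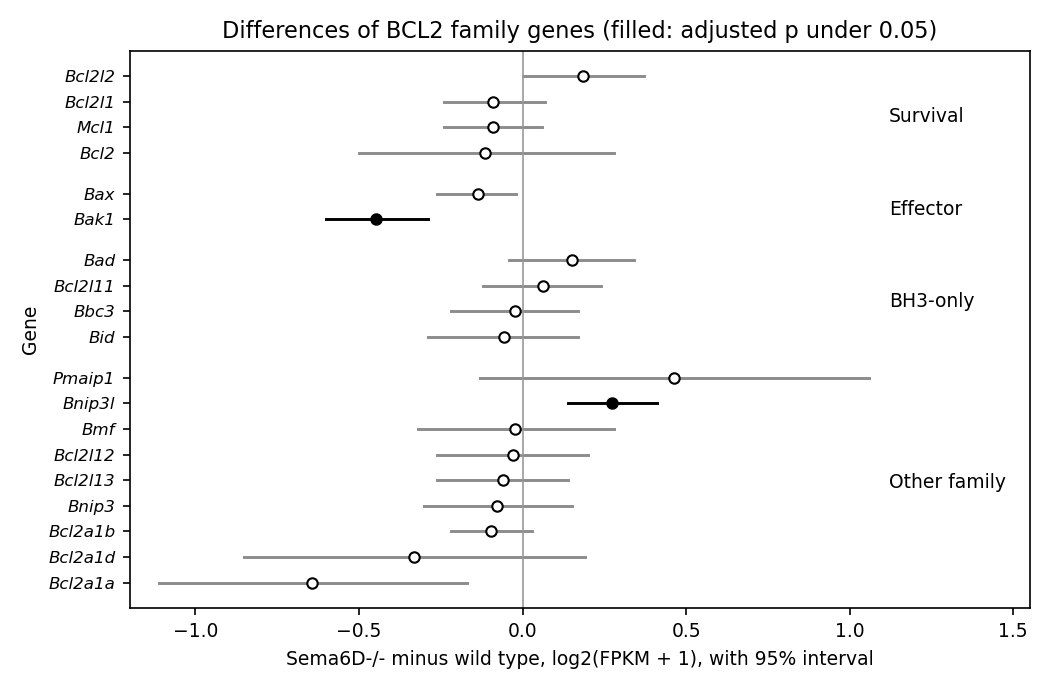
Difference in log2(FPKM + 1), Sema6D-/- minus wild type, for the 10 members by role and for 9 other tested family genes, with 95% intervals from limma (n = 2 libraries each). Filled points passed at an adjusted p under 0.05: Bak1 at -0.45 and Bnip3l at 0.27.

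None of the 4 survival members passed the test. Mcl1 was at 188.5 and 189.6 FPKM in Sema6D-/- libraries, against 191 and 211.8 FPKM in wild type libraries. The groups lay next to each other without overlap, and the difference was -0.09 ± 0.06 (SE; 95% interval -0.24 to 0.06, limma adjusted p = 0.429). Bcl2l1, which protects cells when growth factors run short, was at 49.3 and 46.9 FPKM in Sema6D-/- libraries and 53.4 and 49.1 FPKM in wild type libraries. The groups overlapped (-0.09, 95% interval -0.24 to 0.07, limma adjusted p = 0.438).

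Bcl2l2 was the survival member with the larger value under Sema6D-/-, at 13.7 and 12.9 FPKM in Sema6D-/- libraries against 11.1 and 12 FPKM in wild type libraries. The groups did not overlap, but the difference of 0.19 ± 0.07 (SE) did not pass after adjustment (limma adjusted p = 0.194). Bcl2 was at 3.71 and 4.80 FPKM in Sema6D-/- libraries and 5.27 and 4.10 FPKM in wild type libraries. Its groups overlapped, and its 95% interval of -0.50 to 0.28 was the widest of the 10, so a moderate difference in either direction was not detectable. The exons of Bcl2l2 overlap Gm20521 on the same strand, with 12.1% of its 50-base stretches in common, and those of Bax overlap Gm45808 likewise, with 8.51%, so the split of reads between them is uncertain.

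None of the 4 BH3-only members passed the test either. Bcl2l11, the BH3-only protein that rises in many blood cells when cytokine is withdrawn, was at 23.5 and 22.4 FPKM in Sema6D-/- libraries and 20.8 and 23.0 FPKM in wild type libraries. The groups overlapped (0.06, 95% interval -0.12 to 0.24, limma adjusted p = 0.644). Bcl2l11 lies on chromosome 2, as Sema6d does, and begins 3.46 megabases past the end of Sema6d. Bcl2l1 lies on chromosome 2 too, and begins 28.1 megabases past the end of Sema6d.

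Bid, which death-receptor caspases cut into its active form, was at 20.5 and 24.1 FPKM in Sema6D-/- libraries and 24.0 and 22.3 FPKM in wild type libraries. Its groups overlapped (-0.06, 95% interval -0.29 to 0.17, limma adjusted p = 0.744). Bbc3, a p53 target, was at 6.59 and 6.48 FPKM in Sema6D-/- libraries and 6.83 and 6.51 FPKM in wild type libraries. With overlapping groups and a difference of -0.02, it was the member closest to no difference (95% interval -0.22 to 0.17, limma adjusted p = 0.882).

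Bad, a BH3-only protein held inactive by growth factor signalling, was at 20.6 and 21.8 FPKM in Sema6D-/- libraries, against 17.9 and 20.1 FPKM in wild type libraries. Both Sema6D-/- libraries were the higher ones, but the difference of 0.15 did not pass (95% interval -0.04 to 0.34, limma adjusted p = 0.289). Exons of Bid overlap Bcl2l13, and those of Bad overlap Gpr137 (15.4 to 19.5 FPKM), on the opposite strand. The libraries were strand-specific, but the strand setting of the quantification is not given, so reads of these pairs cannot be told apart here.

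Set against each other by role, the effectors held the only call. The median difference was -0.29 for the 2 effectors, -0.09 for the 4 survival members and 0.02 for the 4 BH3-only members. Summed effector FPKM were 222 and 227 in Sema6D-/- libraries and 274 and 257 in wild type libraries. Summed survival FPKM were 255 and 254 in Sema6D-/- libraries and 261 and 277 in wild type libraries, and summed BH3-only FPKM were 71.1 and 74.8 in Sema6D-/- libraries and 69.6 and 71.9 in wild type libraries. The effector and survival sums were lower in Sema6D-/- libraries without overlap, and the BH3-only sums overlapped. Mcl1, which did not pass the test, made up most of the survival sum, which covers the 4 listed members and leaves out Bcl2a1b. Among all genes tested, groups did not overlap for 56.2%.

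The ratio of the survival sum to the effector sum was 1.151 and 1.121 in Sema6D-/- libraries and 0.9504 and 1.078 in wild type libraries. The ratio of Mcl1 to Bak1 was 2.65 and 2.71 in Sema6D-/- libraries and 1.88 and 2.31 in wild type libraries. Bcl2l1, which with Mcl1 is the main guard of Bak1, stood to Bak1 at 0.693 and 0.670 in Sema6D-/- libraries and at 0.525 and 0.535 in wild type libraries. These 3 ratios were higher in Sema6D-/- libraries without overlap. All 3 hold Bak1 in the denominator, so they are not separate from its call. The ratio of the survival sum to the BH3-only sum was lower without overlap. It was 3.59 and 3.40 in Sema6D-/- libraries and 3.74 and 3.85 in wild type libraries. The sums in these ratios cover the listed members only, so Bcl2a1b is not in the survival sum. The ratios describe messenger RNA, and apart from that of Bak1 to Bax they were not tested.

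**Figure D3:**
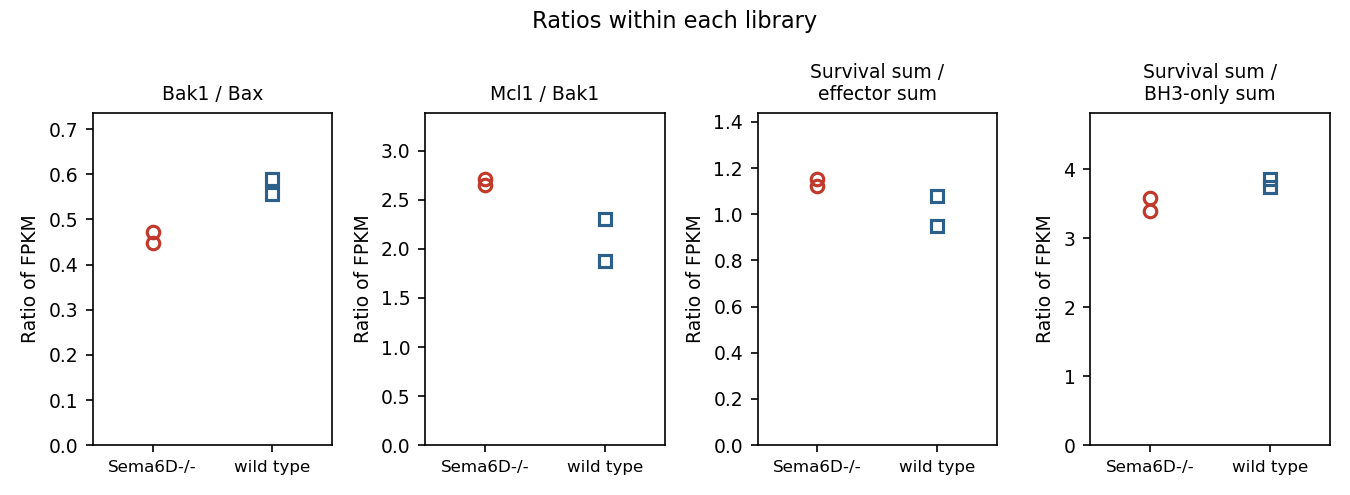
Ratios of FPKM within each library, 1 symbol per library (circles, Sema6D-/-; squares, wild type; n = 2 each), with axes starting at 0. Bak1 to Bax is 0.473 and 0.447 under Sema6D-/- against 0.588 and 0.556 under wild type. The survival sum to the effector sum is 1.151 and 1.121 under Sema6D-/- against 0.9504 and 1.078 under wild type. Sums cover the listed members only.

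Other family genes showed 1 call. For this and the following lists, the share called over all 10115 genes tested was 4.80% higher and 4.91% lower. Of 16 listed, 9 were tested, and Bnip3l, a BH3-related receptor for the removal of mitochondria, was higher at 44.4 and 44.0 FPKM in Sema6D-/- libraries against 35.4 and 37.4 FPKM in wild type libraries (0.27, limma adjusted p = 0.0342). No tested gene of the list was called lower, and the list median was -0.06. Bcl2a1b, a survival gene induced by inflammatory signals, was at 118 and 112 FPKM in Sema6D-/- libraries and 121 and 125 FPKM in wild type libraries, a level between those of Bax and Bak1, and did not pass (limma adjusted p = 0.305). Its neighbour Bcl2a1a was at 2.43 and 1.80 FPKM in Sema6D-/- libraries and 4.62 and 3.18 FPKM in wild type libraries. The Bcl2a1a groups did not overlap, with Sema6D-/- lower, but the difference did not pass (-0.64, limma adjusted p = 0.103). Bcl2a1d did not pass either (limma adjusted p = 0.391). These copies share 69% to 79.5% of their 50-base stretches with other transcripts, so the split of reads among them is uncertain. Pmaip1 (NOXA), the BH3-only partner of Mcl1, was at 3.82 and 2.65 FPKM in Sema6D-/- libraries and 2.71 and 1.49 FPKM in wild type libraries, with overlapping groups.

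Downstream of mitochondria, 3 of 19 tested apoptosome, caspase and inhibitor genes were lower and 0 higher (list median -0.12). The mitochondrial nuclease gene Endog was at 2.98 and 2.80 FPKM in Sema6D-/- libraries against 4.30 and 5.07 FPKM in wild type libraries. Birc3, an inhibitor of death-receptor signalling, was at 13.01 and 12.07 FPKM in Sema6D-/- libraries against 16.34 and 16.24 FPKM in wild type libraries. Apaf1, the scaffold of the apoptosome, was at 11.20 and 11.25 FPKM in Sema6D-/- libraries and 12.83 and 13.17 FPKM in wild type libraries and did not pass (limma adjusted p = 0.136; named after its values were seen).

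In the death-receptor arm, which reaches the family through Bid, 3 of 7 tested genes were lower (list median 0.01), but Tnfrsf10b was tested only through its wild type level, and without it the count is 2 of 6. The receptor gene Fas was at 2.30 and 2.95 FPKM in Sema6D-/- libraries against 5.08 and 5.56 FPKM in wild type libraries (-0.81, limma adjusted p = 0.0207). Tnfrsf10b, the mouse TRAIL receptor, was at 0.629 and 0.571 FPKM in Sema6D-/- libraries against 3.42 and 2.12 FPKM in wild type libraries (-1.21). Its mean was under 1 FPKM in Sema6D-/- libraries, so the filter itself favoured a lower value. Cflar, which blocks caspase activation at these receptors, was at 13.7 and 13.8 FPKM in Sema6D-/- libraries. In wild type libraries Cflar was at 17.2 and 16.7 FPKM (limma adjusted p = 0.046). Without the filter none of these 3 genes passed (limma adjusted p = 0.0661 for Tnfrsf10b, 0.0684 for Fas and 0.0782 for Cflar).

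Of 13 tested genes on the list of p53 and its targets, 1 was higher, Sesn1, a stress-induced regulator of growth signalling, at 35.4 and 33.9 FPKM in Sema6D-/- libraries against 25.03 and 27.32 FPKM in wild type libraries (list median 0.02). Among 15 tested regulators of the members, 3 were higher and 0 lower (list median 0.08). Ddit3 (CHOP), a stress transcription factor known to raise Bcl2l11 and Bbc3, was at 94.9 and 109 FPKM in Sema6D-/- libraries against 77.8 and 77.7 FPKM in wild type libraries (0.38, limma adjusted p = 0.0342). Trib3, a pseudokinase gene that CHOP induces, was at 6.27 and 6.51 FPKM in Sema6D-/- libraries against 4.64 and 3.84 FPKM in wild type libraries. Ppp3ca, a calcineurin subunit that can activate BAD by dephosphorylation, was at 50.1 and 46.2 FPKM in Sema6D-/- libraries against 38.6 and 40.2 FPKM in wild type libraries. Together 11 of 63 tested genes on these 5 lists passed, 5 higher and 6 lower with Tnfrsf10b included, against 9.72% of all genes tested. The lists were chosen with earlier results of these data known, so no shift of the pathway is drawn from this count. These calls were lost without Sema6D-/- replicate 1 and without Sema6D-/- replicate 2. Without wild type replicate 1 there were 1 higher and 2 lower calls on the lists, and without wild type replicate 2 there were 3 higher and 1 lower.

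**Figure D4:**
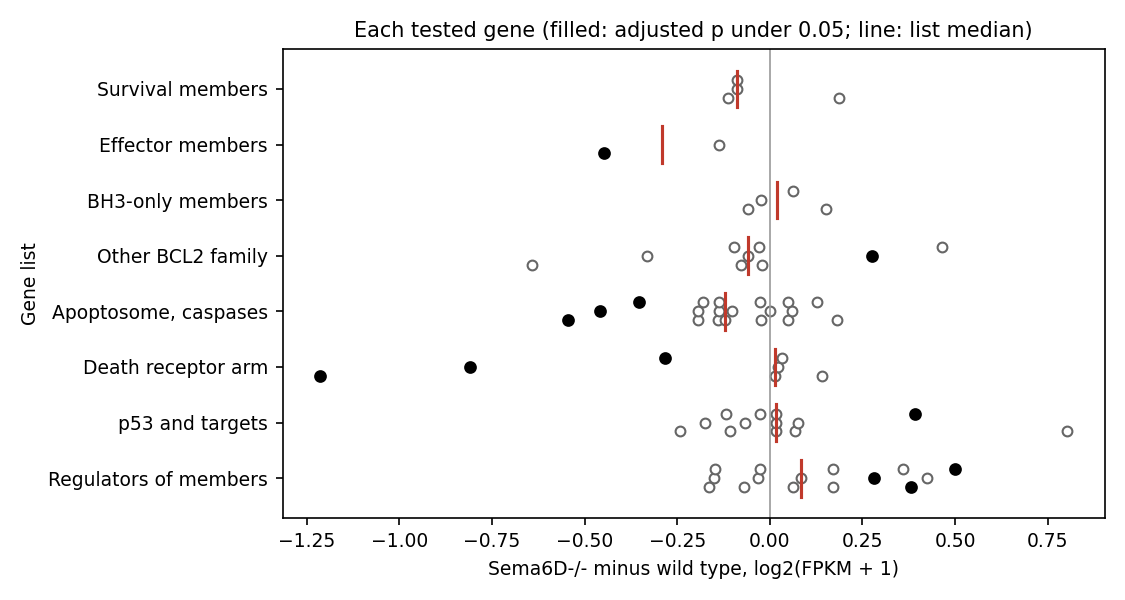
Difference in log2(FPKM + 1), Sema6D-/- minus wild type, of each tested gene on the 3 member lists and 5 other lists of the pathway; filled points passed at an adjusted p under 0.05 and the line is the list median. The effectors have the lowest median of the 8 lists, -0.29 over 2 genes, and the filled points of the caspase and death-receptor lists lie to the left, among them Fas at -0.81; the leftmost, Tnfrsf10b, passed the filter only through the wild type libraries.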

How the data were processed

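Each of 4 libraries came as 1 file of gene symbols and values. The deposited values are FPKM, normalized between libraries with Cuffnorm 2.2.1, per the submitters' processing notes, which list mm10, SAMtools 0.1.19, Bowtie2 2.2.3 and TopHat2 2.0.13 too. Annotation, strand setting and multiple mapping: not given in the sources used here. Each file held 23284 symbols, of which 25, all date-like, had no value. The test was a two-sided limma fit (3.58.1, R 4.3.3; eBayes with trend) of log2(FPKM + 1) over 10115 genes whose mean reached 1 FPKM, adjusted by the Benjamini-Hochberg method at 0.05. This scale understates changes of low genes. Sema6d was read from a fit without the filter. The test was also run on data simulated with independent noise of the fitted variances. Such data cannot show whether the spread between these libraries is technical. Depth was estimated from the steps between low FPKM values of genes with 1 GENCODE transcript of at least 1000 bases, and covers counting only. Libraries were grouped by the genotype label. Shared 50-base stretches were counted over GENCODE M21 transcripts (GRCm38, the assembly that mm10 names). The members and lists were chosen with earlier results of these data known. Beside the members, the named genes were Sema6d, Bcl2a1a, Bcl2a1b, Bcl2a1d, Pmaip1 and up to 4 called genes per list by smallest p. Alternatives were other pseudocounts, filters, scalings and variance models, a replicate block, and leaving out each library. Some genes on the lists are not reported here by name.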

Additional observations from a re-analysis of the deposited data

How the results depend on the processing

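Bak1 kept its sign under all 12 alternatives (-0.52 to -0.37) and its call under 10, with limma adjusted p from 0.0131 to 0.115; without a filter it was 0.0489 and with eBayes without trend 0.0497. The count of lower members was 0 to 1 when 1 library was left out, and no member was higher under any of the 12. Leaving out 1 library gave 72 to 276 higher and 87 to 290 lower genes among all genes, and 0 to 3 higher and 0 to 2 lower genes on the 5 other lists; fewer libraries weaken the test. These differences changed sign within the leave-one-out ranges: Bcl2 (-0.26 to 0.04, positive without wild type replicate 1 or Sema6D-/- replicate 1), Bcl2l11 (-0.01 to 0.13, negative without wild type replicate 1), Bid (-0.17 to 0.05, positive without Sema6D-/- replicate 1), Bbc3 (-0.05 to 0.01, positive without wild type replicate 1) and Sema6d (-0.20 to 0.05, positive without wild type replicate 2 or Sema6D-/- replicate 1). Testing all symbols unfiltered called 256 higher and 248 lower genes; dropping the trend from eBayes called 261 higher and 327 lower. On the 5 other lists, unfiltered testing called 0 in both directions and eBayes without trend 0 higher and 3 lower, while lower calls were 3 with a mean of at least 5 FPKM and 3 after quantile normalization; the causes were not tested. Deviations of same-numbered libraries had a correlation of -0.018, which cannot show whether these libraries were prepared together. A replicate block gave 300 higher genes, 1 higher and 3 lower on the other lists, and kept Bak1 (limma adjusted p = 0.025). Depth limits Sema6d and Bcl2a1a, with an estimated 9 to 39 and 13 to 34 fragments a library.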

Other observations

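Cycs, the gene for cytochrome c, which the effectors release from mitochondria, was at 1.003 and 1.191 FPKM in Sema6D-/- libraries and 1.376 and 1.241 FPKM in wild type libraries. Of its 50-base stretches, 26.1% occur in transcripts of 76 other annotated genes, so its level is uncertain and no difference was drawn from it. Cycs was picked out here after its values were seen.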
